A study of Mus musculus with 5 samples.

Results

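NEUROD2 binding at the starts of protein-coding genes was examined where peaks of 3 different NEUROD2 antibodies coincided. ChIP-Seq had been performed on the cerebral cortex of BALB/c mouse embryos at stage E14.5, and each antibody yielded 1 library from pooled embryos. The antibodies are named here ab1, ab2 and ab3 by the number in the library titles. The study lists antibody 1 as raised in mouse and antibodies 2 and 3 in rabbit, and the match of libraries to antibodies by number is assumed. Another 2 libraries made with GFP antibodies served the peak caller as controls, ab2 and ab3 sharing the rabbit one by this match, and have no peak list of their own. The libraries therefore measure 1 condition with different antibodies, no antibody has a biological replicate, and there is no contrast between groups of animals. The regions were selected on the presence of peaks: overlapping peaks were joined, regions with all 3 antibodies were kept, and the midpoint had to lie within 1000 bp of the transcription start site (TSS) of a protein-coding gene. This gave 323 regions, which are 4.51% of the 7160 regions with all 3 antibodies and stand among 32261 regions with at least 2. They are called triple-bound promoters below, with bound meaning only that a peak was called.

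NEUROD2 is a basic helix-loop-helix (bHLH) transcription factor of postmitotic excitatory neurons. Such factors pair with ubiquitous E-proteins and contact the E-box, a short palindrome-like site with the letters CANNTG, in which the middle bases and the flanking base differ between family members. In the developing cortex, NEUROD proteins act after the proneural factors that commit progenitors to a neuronal fate, when newborn neurons migrate, settle in layers and grow axons. The motif searched here was the extended E-box, on both strands. It is CAGCTG or CAGATG, the complement of the latter (CATCTG), or else CATATG, each followed by G or T. This form is the study's consensus, which was found in the peak regions of these same libraries. Across all 21938 coding genes, 15.5% held it in the 200 bp centred on the TSS.

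Sequences are shown first for 4 triple-bound promoters that stand for the contrasts described below. The region shared by the Neurod1 and Cerkl starts and the one at Nhlh1 lie at genes of neuronal bHLH factors and hold their E-boxes upstream of the gene. Gm9736 and Krtap4-2 belong to gene clusters on chromosomes 10 and 11 in which the E-boxes lay inside a coding exon. Each line gives the central 200 bp of the region on the mm10 (GRCm38) reference, read 5′ to 3′ on the strand of the gene, at chr2:79456849-79457048, chr1:172057700-172057899, chr10:77750827-77751026 and chr11:99634727-99634926 in this order, all 4 on the minus strand. Capitals mark the extended E-box in either direction.
Neurod1 and Cerkl: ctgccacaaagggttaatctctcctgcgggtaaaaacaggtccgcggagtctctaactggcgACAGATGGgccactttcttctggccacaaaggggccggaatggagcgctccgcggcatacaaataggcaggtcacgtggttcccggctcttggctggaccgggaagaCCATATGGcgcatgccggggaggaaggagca
Nhlh1: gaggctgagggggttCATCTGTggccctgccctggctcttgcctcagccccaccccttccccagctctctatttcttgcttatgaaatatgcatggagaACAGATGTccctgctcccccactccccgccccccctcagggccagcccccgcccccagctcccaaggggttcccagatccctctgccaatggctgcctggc
Gm9736: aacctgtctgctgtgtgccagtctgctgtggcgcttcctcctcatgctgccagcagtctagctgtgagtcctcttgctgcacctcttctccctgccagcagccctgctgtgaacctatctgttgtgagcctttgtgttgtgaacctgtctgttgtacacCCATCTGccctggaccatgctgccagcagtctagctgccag
Krtap4-2: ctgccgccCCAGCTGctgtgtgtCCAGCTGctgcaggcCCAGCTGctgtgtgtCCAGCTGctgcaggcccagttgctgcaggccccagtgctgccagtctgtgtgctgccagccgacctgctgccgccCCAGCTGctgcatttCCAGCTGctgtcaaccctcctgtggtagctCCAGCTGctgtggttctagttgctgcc

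The E-box nearest to the midpoint of the ab3 peak is given for a further 8 regions, since ab3 had the fewest peaks and its peak can lie beside the centre of a wide region. Hes6, Neurod6 and Bhlhe22 are neuronal transcription factor genes, Syt3, Btbd17 and Gm960 are among the regions with the highest scores, and Gm18596 and Gm19668 belong to the chromosome 10 cluster. Each line holds 27 bases, the 7 bases of the motif in capitals between 10 bases on either side, at chr1:91413357-91413383, chr6:55681195-55681221, chr3:18054167-18054193, chr7:44382652-44382678, chr11:114795499-114795525 and chr19:4698598-4698624 and, for the last pair, chr10:77742126-77742152 and chr10:77798717-77798743. The strand shown is the one on which the motif reads as defined, which is minus for Gm960 and plus for the others.
Hes6: gggtctctggCAGCTGGcggggcggag
Neurod6: ctgcactgatCATCTGGcatccctgta
Bhlhe22: gctgtgtataCAGATGGcaggcagaat
Syt3: ccgagtcgcaCAGATGGctggttcttg
Btbd17: tgcctggaccCAGCTGTcggagacaat
Gm960: aaggcaaagcCATCTGGggtctagagc
Gm18596: tgatccagagCAGATGGgtgtgcagca
Gm19668: tgatccagagCAGATGGgtgtgcagca

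Triple-bound promoters were rare among genes and among bound promoters. Of the 21938 coding genes, 353 (1.61%) had such a region within 1000 bp of their start, whereas 4555 (20.8%) had a region with at least 2 antibodies. Of the 4101 coding promoters with at least 2 antibodies, 7.88% (95% Wilson interval 7.09 to 8.74) had all 3. The same share was 24.9% (24.3 to 25.5) of regions over 10 kb from the TSS of any gene, called distal below. The missing antibody was nearly always ab3: of the 3778 coding promoters with 2 antibodies, 3 had an ab3 peak. The ab3 list was also the shortest, with 7470 peaks beside 51841 for ab1 and 35310 for ab2. Intervals here and below cover counting error only, and regions are not replicates.

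MACS gave each peak a score, computed as −log10 of its p-value times 10, and the lists begin at 50. Because the rule used these peaks, scores are given as a description. Triple-bound promoters had median scores of 1195 for ab1, 625 for ab2 and 76.0 for ab3. Their scores fell in the order ab1, ab2, ab3 at 284 of 323 regions (87.9%), and ab3 scored above ab1 or ab2 at 3. The ab3 score reached 100 at 104 regions (32.2%) and 200 at 37 (11.5%). Coding promoters with 2 antibodies had medians of 217 for ab1 and 116 for ab2, and distal regions with all 3 had 1155, 584 and 91.5. High ab1 scores did not always come with an ab3 peak: an ab1 score of at least 1000 was found at 186 triple-bound promoters and at 178 coding promoters that lacked 1 antibody. Neurod2 itself was one of the latter, with 2021.71 for ab1, 770.83 for ab2 and no ab3 peak, and Sox11, a transcription factor gene of young neurons, had 3100 for ab1 and 1674.82 for ab2 without ab3; both were picked after their values were seen.

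**Figure D1:**
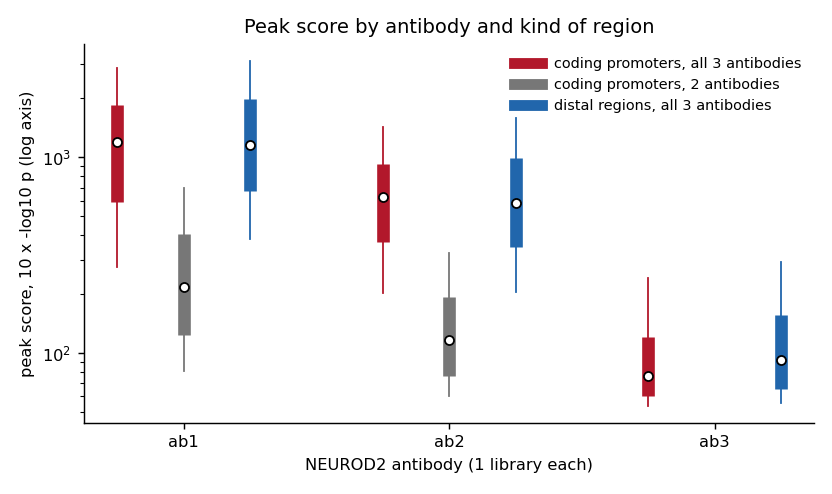
Peak scores of each antibody on a log axis, for coding promoters with all 3 antibodies (red, 323 regions), coding promoters with 2 antibodies (grey) and distal regions with all 3 (blue). Circles are medians, thick bars span the quartiles and thin lines the 10th to 90th percentiles; the red and blue medians lie close together, at 1195 and 1155 for ab1, and the grey ones lower. No grey bar is drawn for ab3, which had 3 peaks in that group.

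The order of the regions was less alike between ab3 and the others than between ab1 and ab2. Across the 323 regions, Pearson's r of the log10 scores was 0.874 for ab1 and ab2, 0.536 for ab1 and ab3 and 0.638 for ab2 and ab3. In distal regions the coefficients were 0.906, 0.702 and 0.784. These describe regions measured in the same libraries, and ab2 and ab3, as matched by number, have a control in common. In addition, 22 regions shared the ab1 score of 3100, at which the scores are not resolved. The rule required the peaks to overlap, and within that limit the medians were 58.0 bp between the midpoints of ab1 and ab2, 68.0 bp for ab1 and ab3 and 80.0 bp for ab2 and ab3. The median region was 1430.0 bp wide and 292 of them (90.4%) consisted of 1 peak of each antibody.

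The highest ab3 score was found at a hair keratin-associated gene. At Krtap16-1 on chromosome 11 (99984725 to 99986821), ab1 and ab2 scored 3100 each and ab3 scored 1637.64. The next ab3 score was 710.63, at Gm9736. Of the 8 highest ab3 scores, 4 belonged to keratin-associated clusters, namely these and those of Gm18596 with 637.42 and Gm19668 with 621.06. The remaining 4 lay at Syt3 with 688.03, Btbd17 with 674.64, Nsg2 with 618.73 and Nfatc2 with 599.39, and all of these had 3100 for ab1 and between 2134.13 and 2251.75 for ab2. Syt3 encodes a synaptotagmin, a calcium sensor of membrane traffic, Nsg2 a neuronal endosomal protein, and Nfatc2 a calcium-responsive transcription factor. By the mean of their ranks over the antibodies, Gm960, Bcl7a, Slc35c2, Hlcs and Prdm8 also stood among the first 8. Prdm8 encodes a PR-domain transcriptional regulator of projection neurons, Bcl7a a subunit of SWI/SNF chromatin remodellers, Hlcs the enzyme that attaches biotin to carboxylases and Slc35c2 a nucleotide-sugar transporter. Prdm8 scored 3100, 3100 and 371.08 and Bcl7a 3100, 3100 and 417.86 for ab1, ab2 and ab3.

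At the lower end, the ab3 peak lay just above the cutoff. The 5 lowest ab3 scores were 50.01 at Golga4, 50.11 at Rgs8, 50.18 at Arhgap44, 50.66 at Susd2 and 50.87 at Igfbp2. Their ab1 scores ranged from 205.53 at Rgs8 to 1707.55 at Arhgap44, so a low ab3 score occurred with high and low scores of the other antibodies. Close to the distance limit, Cdh2 (+996 bp), Slc44a5 (+986 bp) and Fam81b (−977 bp) lay just inside, and Bco1 (−1008 bp) and Cntn2 (−1028 bp) just outside. Plus is downstream of the TSS in the direction of the gene. Cntn2, an axonal adhesion molecule, had scores of 3100, 1454.22 and 268.81, above the members' medians for all 3 antibodies.

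Neuronal bHLH genes held triple-bound promoters at 4 of 28 genes (14.3%, beside 1.61% of all coding genes). The 4 were Neurod1, Neurod6, Nhlh1 and Bhlhe22, which all encode bHLH factors of differentiating neurons. The Neurod1 region scored 2108.73 for ab1, 1200.05 for ab2 and 252.9 for ab3, with its midpoint 198 bp upstream of the Neurod1 TSS and 164 bp upstream of a Cerkl transcript that starts nearby. Neurod6 scored 2497.75, 1232.49 and 88.89, with the midpoint 108 bp upstream of its TSS. At Bhlhe22 the scores were 3199.08, 1351.78 and 79.87. Nhlh1 had the lowest of the 4, 1216.18, 757.0 and 55.11. All 4 midpoints lay upstream of the TSS. Another 9 genes of the list had 2 antibodies only, among them Neurod2, Neurog2, Tcf4 and Nhlh2, so that 46.4% of the list had at least 2 antibodies, beside 20.8% of all coding genes.

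The Notch pathway, through which neighbouring cells hold one another back from differentiating, was represented by 3 of 26 genes (11.5%, beside 1.61% of all coding genes). Hes6, an antagonist of the HES repressors that favours differentiation, scored 3100 for ab1, 3100 for ab2 and 283.51 for ab3. Numbl, an adaptor related to the Notch inhibitor Numb, scored 3074.23, 1253.21 and 109.71. Dll3, a divergent Notch ligand, scored 1506.34, 618.79 and 91.15. The receptor gene Notch2 and the effectors Hes5, Hey1 and Hey2 had 2 antibodies only, and 46.2% of the list had at least 2, beside 20.8% of all coding genes.

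Transcription factors of projection neurons and cortical layers held 4 of 43, which is 9.30% beside 1.61% of all coding genes: Bhlhe22, Foxp2, Tle4 and Myt1l. Foxp2, a forkhead factor of deep-layer neurons, had scores of 3100, 2234.03 and 191.08 with the midpoint 339 bp upstream of the TSS. Tle4, a Groucho corepressor of deep layers, had 1707.81, 816.13 and 61.59, and Myt1l, a zinc finger factor that maintains neuronal identity, had 1122.91, 388.57 and 54.53. For 19 others, including Cux1, Tbr1, Sox11 and Pou3f2, 2 antibodies were found without the third, so that 53.5% had at least 2, beside 20.8% of all coding genes. Fezf2 and Bcl11b had no region within 1000 bp of the start used, the nearest midpoints being 2845 bp downstream and 2208 bp upstream. That Bcl11b region had all 3 antibodies, with scores of 1991.53, 1198.42 and 61.3, and that of Fezf2 had ab1 and ab2. By ChIP and quantitative PCR, the study reports NEUROD2 binding at promoter regions of both genes. The lists of 23 radial glia and progenitor genes, 24 subpallial genes and 58 synaptic vesicle and ion channel genes held no triple-bound promoter, which for lists of this size is near the 1.61% of all coding genes. At least 2 antibodies were found at 43.5%, 16.7% and 36.2% of them, beside the 20.8%.

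Lists of migration, adhesion and axon guidance genes held at least 2 antibodies at 51.4%, 39.6% and 43.0% of their genes, beside 20.8% of all coding genes, and all 3 at a few. Of 35 genes of Reelin signalling and radial migration, 3 had a triple-bound promoter (8.57%, beside 1.61% of all coding genes): the kinase gene Fyn, the N-cadherin gene Cdh2 and the tubulin gene Tubb2b. Fyn, which phosphorylates the Reelin adaptor Dab1, scored 2091.98, 1386.82 and 176.03. Tubb2b scored 2680.18, 1244.7 and 68.6, and Cdh2 1316.58, 839.19 and 75.29. Cdk5r1 and Lrp8, a Cdk5 activator and a Reelin receptor of the same list, had peaks of ab1 and ab2 without ab3.

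Of 53 genes of neuronal adhesion, 4 were triple-bound (7.55%, beside 1.61% of all coding genes): Cdh8, Adgrl3 and Chl1 beside Cdh2. Cdh8, a classical cadherin, scored 2199.38, 786.12 and 70.83. Axon guidance receptors and ligands held only the ephrin receptors Epha5 (1108.18, 346.21 and 64.99) and Epha3 (406.15, 188.89 and 64.92), which is 2 of 79 genes (2.53%), near the 1.61% of all coding genes, whereas the 43.0% with at least 2 antibodies lay above the 20.8%. On the study's own list of axon guidance targets, 4 of 30 (13.3%) were triple-bound, Fyn and Nfatc2 being added to the ephrin receptors, and on its list for the subventricular and intermediate zones 1 of 18 (5.56%), which was Epha3; both lists were chosen on these libraries and are not independent of them.

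The remaining lists held few, and the share of all coding genes was 1.61%. They were Srrm4, a neuronal splicing regulator, and Elavl2 among 29 RNA-binding genes (6.90%), Cdk4 and Gadd45g among 45 cell cycle genes (4.44%), Tle4 among 49 Wnt genes (2.04%) and Tubb2b among 44 cytoskeletal genes (2.27%). Gadd45g, which arrests the cycle of differentiating progenitors, scored 3100, 2460.86 and 146.87. Elavl2 came last of all 323 regions by mean rank, at 83.4, 95.24 and 51.73 for the antibodies in turn. For genes used by every cell, 1 of 81 cytosolic ribosomal protein genes (1.23%, Rpl32) and 2 of 63 genes of mitochondrial complex I and ATP synthase (3.17%, among them Ndufb5) had a triple-bound promoter, and 17.3% and 44.4% had at least 2 antibodies, beside 20.8% of all coding genes. The shares of the Wnt, cytoskeletal and ribosomal protein lists with all 3 antibodies were near that of all coding genes. At least 2 antibodies were found at 52.3% of the cytoskeletal, 41.4% of the RNA-binding, 30.6% of the Wnt and 26.7% of the cell cycle list. All list shares are counts of a few genes and were not tested.

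**Figure D2:**
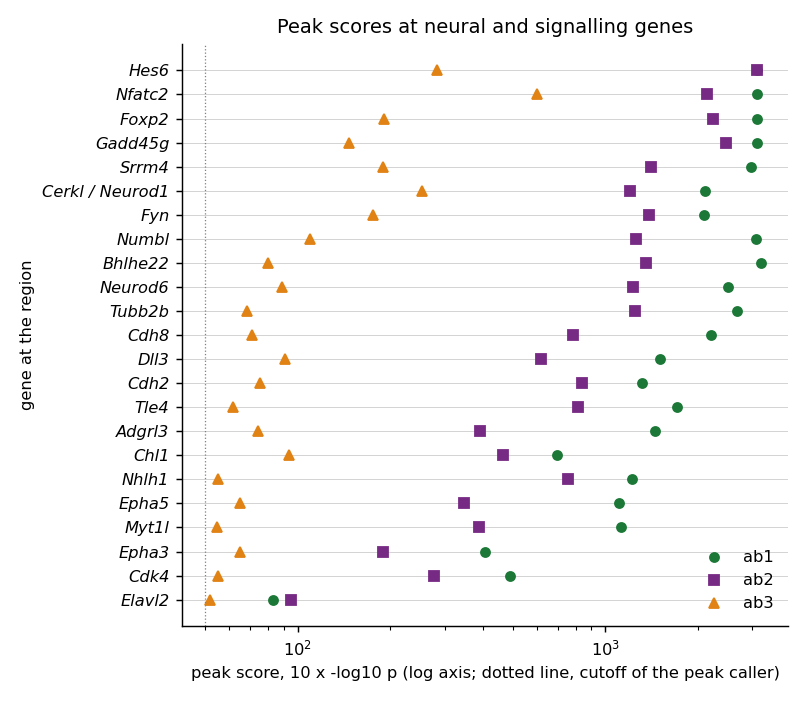
Scores of ab1 (circles), ab2 (squares) and ab3 (triangles) on a log axis at 23 triple-bound promoters of genes on the lists of neural, signalling and cell cycle genes, ordered by mean rank over all 323 regions. At Hes6 ab1 and ab2 coincide at 3100, the ab3 score is the lowest of the 3 at each gene, and the ab3 values run from 51.73 at Elavl2 to 599.39 at Nfatc2.

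Triple-bound promoters lay slightly downstream of the gene start. The midpoint was downstream at 229 of 323 (70.9%), with a median of +162 bp, beside 73.2% of the coding promoters with 2 antibodies. These shares did not differ beyond counting error (difference −2.29 percentage points, 95% Newcombe interval −7.65 to 2.61; two-sided Fisher's exact test, p = 0.396, Benjamini-Hochberg adjusted over 4 tests 0.396). Without ab3, 4098 promoters with ab1 and ab2 differed by −2.86 points from those with 1 of these antibodies (Fisher's exact test, adjusted p = 0.00734). The spread around the start was wider, with 48.3% (42.9 to 53.7) of midpoints within 250 bp against 69.0% (67.5 to 70.4), a difference that was not tested. The regions themselves covered the TSS at 307 of 323. By the transcript of longest span, 94 midpoints lay upstream of the TSS, 78 in a 5′ UTR exon, 71 in a coding exon and 77 in an intron, of which 75 in intron 1. That of Gm11937, at +925 bp and picked after its value was seen, lay beyond the end of this short gene.

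**Figure D3:**
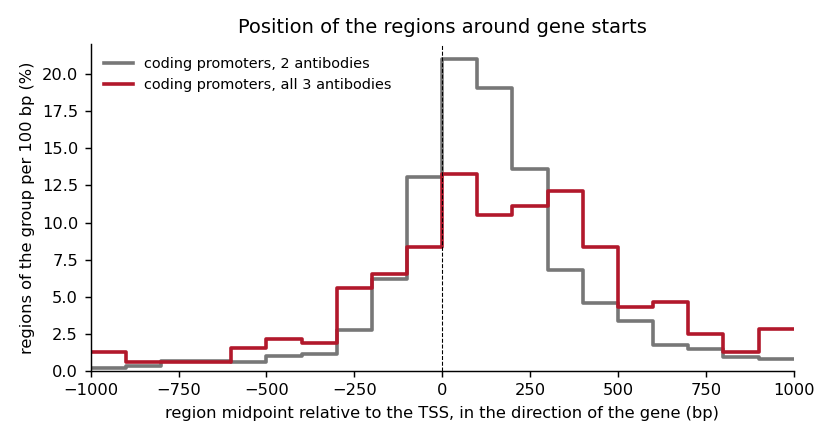
Distribution of region midpoints around the TSS in bins of 100 bp, as percent of the 323 triple-bound promoters (red) and of the 3778 coding promoters with 2 antibodies (grey). Both are highest in the bin from 0 to 100 bp downstream of the TSS, where the red line reaches 13.3%, and the red line is lower and wider.

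A second gene start close by was less frequent at triple-bound promoters, but the difference did not pass the test without the keratin-associated clusters. Another annotated gene began within 1000 bp of the TSS at 59 of 323 (18.3%), against 25.4% of the coding promoters with 2 antibodies (difference −7.17 percentage points, −11.3 to −2.39; Fisher's exact test, adjusted p = 0.00516). None of the 32 regions in those clusters had such a second start, and without them the difference was −5.20 points with an adjusted p of 0.0648. With a limit of 500 bp it was −5.42 points (Fisher's exact test, adjusted p = 0.0759), and without ab3 it turned to 0.650 (adjusted p = 0.533). Paired starts included Pdia3 and Catsper2, Aup1 and Htra2, and Lyrm4 and Fars2, examples picked after the values were seen.

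In base composition, triple-bound promoters stood between other promoters and distal regions. The central 200 bp had a median GC content of 62.5%, against 68.0% at coding promoters with 2 antibodies and 49.5% in distal regions. The ratio of observed to expected CpG, which is high in unmethylated CpG islands, was 0.629 against 0.853 and 0.215. GGGCGG, the core of the GC box of Sp1-type factors, was present in 42.7% of central windows, in 54.8% at promoters with 2 antibodies, in 4.21% of distal regions and in 41.1% of windows centred on all coding starts. The ETS-type sequence CCGGAAGT occurred in 3 of 323 (0.929%) against 4.02%, and 4.36% of windows at all coding starts. TATAAA was found in 2.48%, against 1.48% with 2 antibodies and 7.93% of all coding starts. All were searched on both strands, and these shares were not tested.

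The extended E-box was more frequent at triple-bound promoters than in their flanks and at promoters with 2 antibodies, and less frequent than in distal regions. Because the study derived this motif from peak regions of these libraries, a higher share than in the flanks was partly built in. Tests on it, here and below, are not independent of the data that gave the motif. It was present in the central 200 bp of 126 of 323 regions (39.0%, 33.8 to 44.4). Windows of the same length that began 1000 bp outside the regions held it in 19.5% on the left and 23.8% on the right (McNemar's exact test, two-sided, adjusted p = 1.76e-07 and 5.78e-05). The share was 19.3% at coding promoters with 2 antibodies, a difference of 19.7 points (14.4 to 25.3; Fisher's exact test, adjusted p = 1.21e-14). Distal regions with all 3 antibodies had 65.5%, and the promoters differed from them by −26.5 points (−31.8 to −20.9; Fisher's exact test, adjusted p = 3.45e-20). With a motif of any CANNTG, 70.6% of central windows held a match against 65.0% and 66.9% of the flanks, a difference that did not pass McNemar's exact test (larger adjusted p = 0.366). Without ab3, promoters with ab1 and ab2 held the extended E-box in 20.8% of central windows, which did not pass against the flanks (McNemar's exact test, adjusted p = 0.913), and the differences became 6.70 points from promoters with 1 of these antibodies and −45.8 points from distal regions with both.

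**Figure D4:**
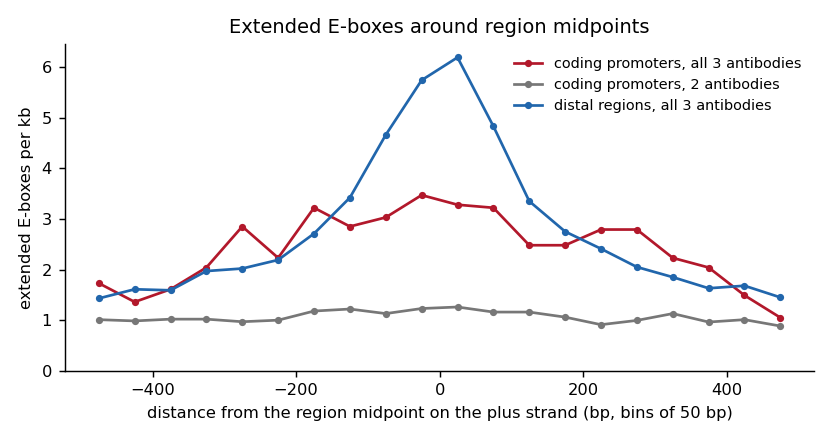
Extended E-boxes per kb in bins of 50 bp around region midpoints, by position on the plus strand and not by the direction of the gene. Triple-bound promoters (red) reach 3.47 per kb in a bin beside the midpoint, distal regions with all 3 antibodies (blue) 6.19 per kb, and coding promoters with 2 antibodies (grey) stay between 0.884 and 1.26 per kb. The red line is broad, with 2.85 per kb from −300 to −250 bp and 2.79 from 250 to 300 bp, where the blue line has 2.02 and 2.05. It includes the regions of the keratin-associated clusters.

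The E-box forms did not contribute equally. CAGATG or its complement was found in 25.1% of central windows against 14.9% of flanks, and CAGCTG in 24.1% against 8.98%. In distal regions CAGATG was the commonest form, in 49.3%, and CATATG occurred in 14.0%, whereas CATATG was found in 1.55% of triple-bound promoters and 4.33% of their flanks. At coding promoters with 2 antibodies CAGATG occurred in 9.56% against 14.9% of flanks, and CAGCTG in 16.6% against 8.19%. The forms were compared as a description, and base composition differs between central windows and flanks, with a median GC content of 62.5% and 46.0%.

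Within bands of GC content the E-box share was higher at triple-bound promoters than at promoters with 2 antibodies in 3 of 4 bands, with intervals apart in 2 of them. It was 42.9% (33.2 to 53.1) against 25.1% (21.7 to 29.0) where GC content was 50 to 60%, and 49.2% (40.3 to 58.1) against 21.5% (19.5 to 23.6) at 60 to 70%. At 70% and above the shares were 21.8% (14.1 to 32.2) and 13.4% (11.8 to 15.2), with intervals that overlapped, and the flanks of these triple-bound promoters held 23.1%. Below 50% the order was the opposite, 33.3% (20.2 to 49.7) against 43.0% (34.5 to 51.9), with intervals that overlapped. Along the ab1 score, the shares were 43.9% against 18.6% below 500 and 35.3% against 34.8% at 2000 and above, where 23 promoters with 2 antibodies were available.

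**Figure D5:**
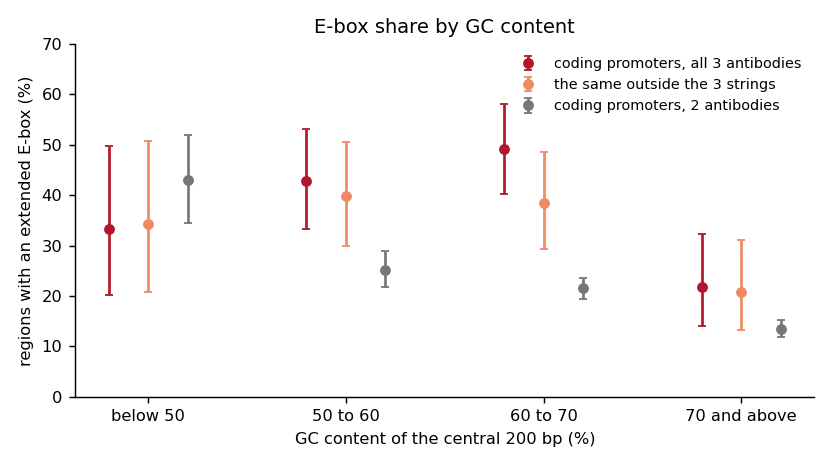
Share of regions with an extended E-box by GC content of the central 200 bp, with 95% Wilson intervals, for all triple-bound promoters (red), for the 291 outside the 3 keratin-associated strings (orange) and for coding promoters with 2 antibodies (grey). In the band of 60 to 70% the points are 49.2%, 38.5% and 21.5%.

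Some regions held the extended E-box, meant by E-box in this paragraph, near the midpoint of the ab3 peak and not at their centre. A 200 bp window on the midpoint of the ab3 peak held one at 156 regions (48.3%, 42.9 to 53.7), which was also above both flanks (McNemar's exact test, larger adjusted p = 2.64e-10), and 75.2% of distal regions held one by the same measure. An E-box was found in both windows at 100 regions (31.0%), in the ab3 window alone at 56 (17.3%) and in the central window alone at 26 (8.05%). Hes6, with no extended E-box in its central window, had one 23 bp from the midpoint of its ab3 peak and 148 bp upstream of the TSS. Btbd17 had one 18 bp from the midpoint of its ab3 peak. Tle4 had one 1 bp from the midpoint of its own, 491 bp upstream of the TSS. At Bhlhe22 the nearest was 798 bp away but 6 bp from the TSS. Anywhere in the ab3 peak, which had a median width of 894 bp, an E-box was found at 287 of 323 (88.9%), beside 93.4% of distal regions and 66.3% and 60.1% of left and right flanks as wide as the peak, shares that were not tested. Foxp2, Myt1l, Epha3 and Epha5 were among those without one. The density in ab3 peaks was 2.51 per kb, beside 1.23 per kb in the flanks.

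Keratin-associated genes and their neighbours formed 3 strings of triple-bound promoters, which together held 32 of the 323 (9.91%). Keratin-associated proteins are cysteine-rich proteins of the hair shaft, encoded by short genes in clusters. The strings were defined, after the values had been seen, as 5 or more triple-bound promoters with midpoints at most 100 kb from the next. The first held 19 regions on chromosome 10 (77689527 to 77862852), of which 18 lay at genes with a provisional Gm name and 1 at Krtap10-10, and Gm9507 had 2 regions. The second held 7 on chromosome 11 (99590735 to 99665965) and the third 6 (99814740 to 99986821), at Krtap and Gm genes. In all, 11 of 57 Krtap genes (19.3%) had a triple-bound promoter, beside 1.61% of all coding genes. The strings' spans held 5 promoters with 2 antibodies.

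Most regions of the strings were centred inside the genes. The midpoint was in a coding exon at 28 of 32, and over all of them it lay between 25 bp upstream and 925 bp downstream of the TSS. In the chromosome 10 string the scores ran from 220.5 to 3173 for ab1, with a median of 959.8, and from 52.6 to 711 for ab3, with a median of 243. In the other 2 strings the ab3 medians were 124 and 108. Over the 32 regions the median ab3 score was 158, against 74.0 in the other 291, while the ab1 median was 821 against 1216. Thus the strings were high for ab3 and not for ab1.

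E-boxes were repeated within these genes. Of the 32 regions, 28 (87.5%) held an extended E-box in the central window, against 98 of the other 291 (33.7%, 28.5 to 39.3). The form CAGATGG made up 16 of 23 matches in the central windows of the chromosome 10 string, as in the Gm9736 and Gm18596 sequences above. The CAGATGG shown for Gm19668 lies outside its central window and is identical to that of Gm18596 over the 27 bases printed. On chromosome 11 CAGCTGG made up 32 of 34 and 20 of 26 matches. Krtap4-6 and Gm11564 had 8 extended E-boxes each in the central window, Krtap4-2 and Krtap1-3 had 7 and Krtap4-16 had 6. The density in ab3 peaks was 9.31 per kb in the strings and 1.91 per kb elsewhere. Pairs of central windows within a string were 45.5% to 92.0% identical, with medians of 58.0%, 61.0% and 56.0% in the 3 strings, and identity between unrelated windows was not measured. Reads with several map positions had been removed before the peaks were called, and the part of repeated sequence in these scores was not tested.

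Without the strings, the E-box results kept their direction. The share in the 291 other regions was above both flanks, 33.7% against 19.6% and 24.4% (McNemar's exact test, larger adjusted p = 0.0187), 14.5 points above promoters with 2 antibodies (adjusted p = 4.39e-08) and differed by −31.8 points from distal regions (Fisher's exact test in both cases; adjusted p = 4.05e-26). Among these 291 the share was not higher at higher ab3 scores, being 34.2% from 50 to 60, 35.2% from 60 to 100, 32.3% from 100 to 200 and 27.3% (13.2 to 48.2) at 200 and above, where 22 regions were available.

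Other NEUROD2 regions near the triple-bound promoters were counted next. A median of 4 other regions with at least 2 antibodies lay within 100 kb of the TSS, against 3 at promoters with 2 antibodies. At least 10 were found at 17.3% (13.6 to 21.8) against 7.12% (6.34 to 7.98), and another region with all 3 antibodies at 58.5% (53.1 to 63.8) against 46.0% (44.4 to 47.6). Much of this lay in the strings, whose regions count one another: of the 56 with at least 10 others, 28 were in the strings. Outside them the shares were 9.62% (6.74 to 13.6) and 54.0% (48.2 to 59.6), the first with an interval that overlapped that of promoters with 2 antibodies, and the median stayed at 4. The differences were not tested. The fullest neighbourhoods were those of Nfam1 and Pipox with 24 regions each, Krtap4-6 with 21 and Gm11555 and Cyp11a1 with 20. At the other end, 17 regions (5.26%), among them Dll3 and Adgrl3, had no other within 100 kb.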

How the data were processed

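ChIP-Seq peaks of 3 NEUROD2 antibodies, with 1 library each from pooled E14.5 BALB/c cortices, were analysed. According to the study's methods, the authors mapped reads to mm10 with Bowtie, removed duplicates and reads with several positions, and called peaks per antibody with MACS against GFP libraries. The deposited score is 10 times −log10 of the MACS p-value, unscaled between libraries. The peak lists give no read counts, and the library totals that the study tabulates were not used here, so no depth is given behind a score. The GFP libraries were not analysed here beyond those calls.

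Peaks sharing at least 1 bp were merged, and midpoints were placed on GENCODE M21 (Ensembl 96, GRCm38), using the transcript of longest span per gene. No region of another chromosome was used. Motifs were searched in the reference, which is of another strain. Shares have 95% Wilson and differences Newcombe intervals. McNemar's exact test (2 flanks) and Fisher's exact test (4 differences), both two-sided, were adjusted by Benjamini-Hochberg; p-values over regions treat them as independent. Programs were tested on simulated data. Tools were Python 3.11.15, scipy 1.17.1, numpy 2.4.6, pandas 2.3.3, pysam 0.24.0 and matplotlib 3.10.9.

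Genes named were the 8 highest ab3 scores and mean ranks, the 5 lowest ab3 scores, and list genes. Named too were the 3 on each side of the distance limit, the 5 with most extended E-boxes or neighbouring regions, and some members of the strings. Others are marked as picked later. Some genes that these rules name are not reported here. Members and lists were chosen with earlier results of these data known.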

Additional observations from a re-analysis of the deposited data

How the results depend on the processing

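The count of 323 became 104 with peak scores of at least 100 and 570 with the TSS of every coding transcript; leaving out 1 antibody gave 321 to 4098, the largest without ab3. The E-box share of 39.0% ranged from 20.8% to 41.4% when 1 antibody was left out; at 20.8%, without ab3, it lay between the flanks and did not pass McNemar's exact test (adjusted p = 0.913). With any CANNTG it was 70.6% and did not pass. With windows of 100 bp it was 23.8%, beside 9.91% and 11.5% in the flanks, and with windows of 400 bp it was 58.5%, beside 33.1% and 35.3%. The second-start difference of −7.17 points was −5.42 with a 500 bp limit and −5.20 without the strings, neither passing Fisher's exact test (adjusted p = 0.0759 and 0.0648), and −7.07 to 0.650 when 1 antibody was left out, reversed without ab3. It was −11.9 with peak scores of at least 100 and −9.86 with the TSS of every coding transcript (Fisher's exact test, adjusted p = 0.00682 and 1.24e-08). The difference in downstream midpoints ranged from −2.86 to −0.451 when 1 antibody was left out, and passed at −2.86, without ab3; the other alternatives gave −5.11 (without the strings) to −0.316 (midpoint of the highest-scoring peak) and did not pass. When 1 antibody was left out, the E-box difference from promoters with fewer antibodies was 6.70 to 23.6 points and that from distal regions −45.8 to −25.0, with 6.70 and −45.8 without ab3. In all, 59 of 68 values kept direction and side of the threshold, or stayed within 1.5 times the count. The strings, the ab3-centred windows and the flanks as wide as the ab3 peak were added after seeing the data. Why the values moved was not tested. Without ab3, the members are promoters with ab1 and ab2. No paired analysis was possible because the GFP libraries that carry the same replicate numbers have no peak lists. Each antibody has 1 library, so the spread between animals could not be measured.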

Other observations

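Further regions were picked after their values had been seen and are given as single values, with no list behind them. At Ddit4, an inhibitor of mTORC1 signalling, ab1, ab2 and ab3 scored 3068.19, 2472.03 and 276.77. Jund, an AP-1 subunit, had 3100, 1874.49 and 205.35, and Skil, a SMAD corepressor, had 3100, 2525.05 and 199.19. Calr, a calcium-binding chaperone, had 1632.74, 684.74 and 70.28, and Sec61b, a part of the translocation channel of the endoplasmic reticulum, had 1682.25, 986.39 and 108.01. The chaperone gene Hyou1 was one of 33 regions with ab2 above ab1, at 113.56, 254.45 and 76.87.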
